A study of Mus musculus with 21 samples.

Results

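The comparison of brain with lung endothelium rested on 6 bulk RNA libraries, 3 from each tissue, of the 21 samples in the study. The rule for members used labels alone, taking the bulk RNA libraries titled for brain and for lung, and no measured value entered it. It was set with earlier results of these data known. All 6 came from C57BL/6J mice aged 2 to 4 months, with no genetic change or treatment named. Mice were perfused, whole organs were minced and digested with collagenase, dispase and DNase, and a myelin-removal spin was applied to brain alone. Live cells that stained for the endothelial antigen CD31 and not for the pericyte antigen PDGFRβ or the blood-cell antigen CD45 were sorted, which limits both groups to cells that survived digestion and the gate. By their labels the RNA libraries are biological replicates; animals, pooling and sex are not stated. The p-values therefore rest on the spread of these libraries alone, and that spread may be technical.

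Endothelial cells line every blood vessel, and the tissue they sit in shapes what they make. In the brain they form the blood-brain barrier: sealed junctions and scarce vesicles keep solutes out, while membrane carriers and efflux pumps decide what enters. Wnt ligands from neural tissue, acting through β-catenin, are known to build and maintain this state. In the lung the capillaries face the air spaces, receive the whole cardiac output, remove or convert circulating peptides, amines and prostaglandins, and comprise large gas-exchange cells called aerocytes beside general capillary cells.

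The brain libraries held 15907235, 17938723 and 21792786 counts and the lung libraries 11308897, 2992101 and 6925167, so the depth in lung, and in lung library 2 most of all, set the smallest value that could be seen. A single count was worth 0.0487 to 0.0621 CPM (counts per 1000000 counts of the scaled library) in brain and 0.0855 to 0.344 CPM in lung. Across genes, which do not count as independent replicates, the correlation of log2 CPM lay between 0.845 and 0.851 within brain, between 0.816 and 0.901 within lung and between 0.558 and 0.663 across tissues. Lung library 2 correlated at 0.819 and 0.816 with lung libraries 1 and 3, which correlated at 0.901 with each other. It also had the lowest values across tissues, 0.558 to 0.567. Every library still correlated more with its own tissue than with the other. Values in every sentence below are CPM after scaling by the trimmed mean of M-values (TMM), in the order of libraries 1, 2 and 3 of a tissue, or as mean ± SD with n = 3. CPM are not divided by transcript length, so levels are compared between tissues for 1 gene and never between genes.

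Endothelial genes were counted in every library of both tissues, and the labels name sorted endothelial cells. Of 28 endothelial surface genes tested, 4 were higher and 10 lower in brain, with a median log2 fold change of −0.75. Among the lower ones were the endothelial cadherin Cdh5, with a log2 fold change of −2.36, and the growth factor receptor Kdr, with −1.12. Pecam1, which encodes the sorted antigen CD31, had 1149, 885 and 996 CPM in brain and 1660.1, 1765 and 1734 CPM in lung. The receptor tyrosine kinase Tie1 had 165 ± 5.98 CPM in brain and 274 ± 78.4 CPM in lung, Tek had 853 ± 195 CPM in brain and 527 ± 124 CPM in lung, and the endothelial ETS factor Erg had 407 ± 70.99 CPM in brain and 348 ± 87.6 CPM in lung. None of Pecam1, Tie1, Tek and Erg was called, with edgeR adjusted p-values of 0.0127, 0.101, 0.0827 and 0.62; for Pecam1 the log2 fold change of −0.77 fell short of the minimum of 1. Markers of other cells were also counted, and several moved with tissue. Their part in any result below was not tested.

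Summed over marker lists, lung libraries held more RNA of lung epithelium and of lymphocyte and granulocyte genes. The 15 lung epithelium genes summed to 1.68, 4.80 and 28.6 CPM in brain and 369.8, 1888 and 664 CPM in lung; 6 of 8 tested were lower in brain, and 10 of the 15 had 0 counts in every brain library. Most of that sum was Scgb1a1, a secretory product of airway club cells, at 277, 1821 and 573 CPM in lung, whereas the surfactant gene Sftpc of alveolar cells had 2.22, 7.21 and 5.33 CPM. Lymphocyte and granulocyte genes summed to 0.613 to 8.01 CPM in brain and 111 to 185 CPM in lung with 6 of 10 lower in brain, and 8 of the 15 in the table were at 0 in all brain libraries, among them the B-cell gene Cd79a. Lymphatic genes summed to 320.0 to 435 CPM in brain and 1111 to 1494 CPM in lung, and 3 of 5 tested were lower in brain. Among these, Lyve1 had 3.73, 0.112 and 0.0975 CPM in brain and 1118, 894 and 774 CPM in lung. Lyve1 was most of the lung sum, and the difference between the tissue sums rested on it. The call of Pdpn, also among the 3 lower genes, was lost when any library was left out. Prox1, the defining lymphatic factor, was not called. It had 0.869, 0.948 and 6.63 CPM in brain and 11.6, 6.18 and 3.65 CPM in lung.

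Brain libraries held RNA of choroid plexus genes. Its 5 marker genes summed to 56.5, 1107 and 372 CPM in brain and 12.1, 2.06 and 11.8 CPM in lung. Ttr, the thyroxine carrier made by choroid plexus epithelium, had counts of 734, 17241 and 7088 in brain and 0 in every lung library, so brain library 2 held most of it. Its edgeR adjusted p was 0.00292, and the call was lost without lung library 1 (adjusted p = 0.0521) or lung library 3 (adjusted p = 0.1). Mural genes summed to 94.9 to 232 CPM in brain and 146 to 673 CPM in lung, most of the lung sum being the muscle gene Des. Without Des, a choice made after the values were seen, they summed to 37.5, 131 and 203 CPM in brain and 52.7, 34.7 and 39.3 CPM in lung. Of 11 mural genes tested, 2, Rgs5 and Vtn, were higher in brain and 1, Des, was lower, with a median log2 fold change of 1.105. The Rgs5 call was lost with limma-voom and without brain library 3 or lung library 2, the Vtn call without lung library 1, and the Des call with no filter on low counts. Astrocyte genes summed to 60.3 to 72.9 and 10.8 to 33.7 CPM in brain and lung, neuron genes to 32.1 to 78.7 and 92.1 to 113, and erythroid genes to 55.6 to 406 and 24.4 to 96.4. Most of the astrocyte sum in brain was Gja1, at 67.4, 59.7 and 48.5 CPM. Gja1 is also in the junction list and was the only member called, of 5 astrocyte genes tested. In bulk RNA of this kind, fewer cells of a type and less RNA per cell cannot be told apart.

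Of 24176 genes in the table, 16487 had a count in the 6 libraries and 12137 passed the filter on low counts. A quasi-likelihood test in edgeR, fitted on these 6 libraries alone, called 813 genes higher and 1078 lower in brain. A call needed an adjusted p below 0.05 (Benjamini-Hochberg, 12137 genes) and a difference of 1 or more on the log2 scale in either direction. Since a gene seen in 1 tissue alone passes the filter through that tissue, counts over the tested members of a list describe the list and do not test it. The background against which every list below is read is 15.6% of tested genes called, 6.7% higher and 8.88% lower in brain. Libraries of brain and lung did not overlap for 35.9% of tested genes, and for 1880 of the 1891 called ones. The median log2 fold change over all tested genes was 0.02.

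**Figure D1:**
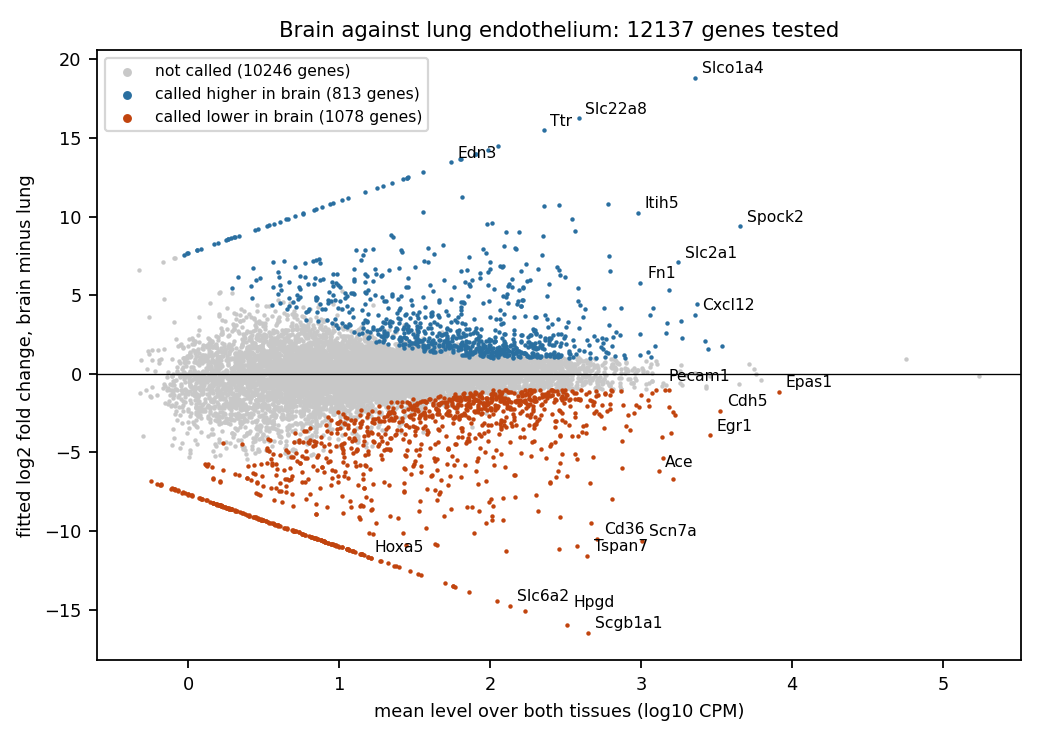
Fitted log2 fold change (brain minus lung) against the mean level of both tissues (log10 CPM) for the 12137 genes tested, with 813 called higher and 1078 called lower in brain in colour and the others in grey. The straight bands above and below are genes with 0 counts in 1 tissue, whose fitted fold depends on a prior count; the median absolute log2 fold change is 3.82 among the lower calls and 2.64 among the higher ones.

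Differences were large. Of the called genes, 358 higher and 635 lower differed by 3 or more on the log2 scale, and 196 and 427 by 5 or more. The median absolute log2 fold change was 2.64 among genes called higher in brain and 3.82 among those called lower. Among tested genes, 57 had 0 counts in all 3 lung libraries and 197 had 0 counts in all 3 brain libraries, of which 21 and 43 reached a mean of 20 CPM in the other tissue. Lung was sequenced less deeply, so an absence there is a weaker statement than an absence in brain.

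Several of the largest folds belonged to genes without a single count in the opposite tissue, and they cover unlike functions. On the brain side they included Slc22a8, a carrier that clears organic anions and drugs, at 595, 887 and 832 CPM, which is at least 5588-fold above a floor of 3 counts over the lung libraries. Ptn, the secreted growth factor pleiotrophin, had 159.8, 122 and 102 CPM in brain, against no count in lung, a difference of at least 926-fold. Ddc, the decarboxylase that makes dopamine and serotonin from their precursors, reached 73.8, 56.4 and 41.7 CPM in brain and was not counted in lung, at least 415-fold apart. These bounds cover counting error only.

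On the lung side were Hpgd, Glp1r and Slc6a2. Hpgd, the dehydrogenase that inactivates prostaglandins, was without a count in all brain libraries and reached 910.2, 455 and 564 CPM in lung. The lung level was at least 11694-fold that of brain. Glp1r, the receptor for the gut hormone glucagon-like peptide, reached 205, 519.7 and 288 CPM in lung without a count in brain, at least 6142-fold apart. Slc6a2, the noradrenaline carrier, reached 342, 308 and 166 CPM in lung and was again not counted in brain, at least 4944-fold apart. Their edgeR adjusted p-values were 4.68e-07, 2.09e-06 and 1.61e-06. Cyp2f2 and Cbr2, also named by the rule, are enzymes known from airway club cells. Cyp2f2 had 22.1, 140.5 and 36.1 CPM and Cbr2 30.2, 285 and 25.7 CPM in lung, with 0 counts in brain, and both were highest in lung library 2, as was the club cell gene Scgb1a1.

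**Figure D2:**
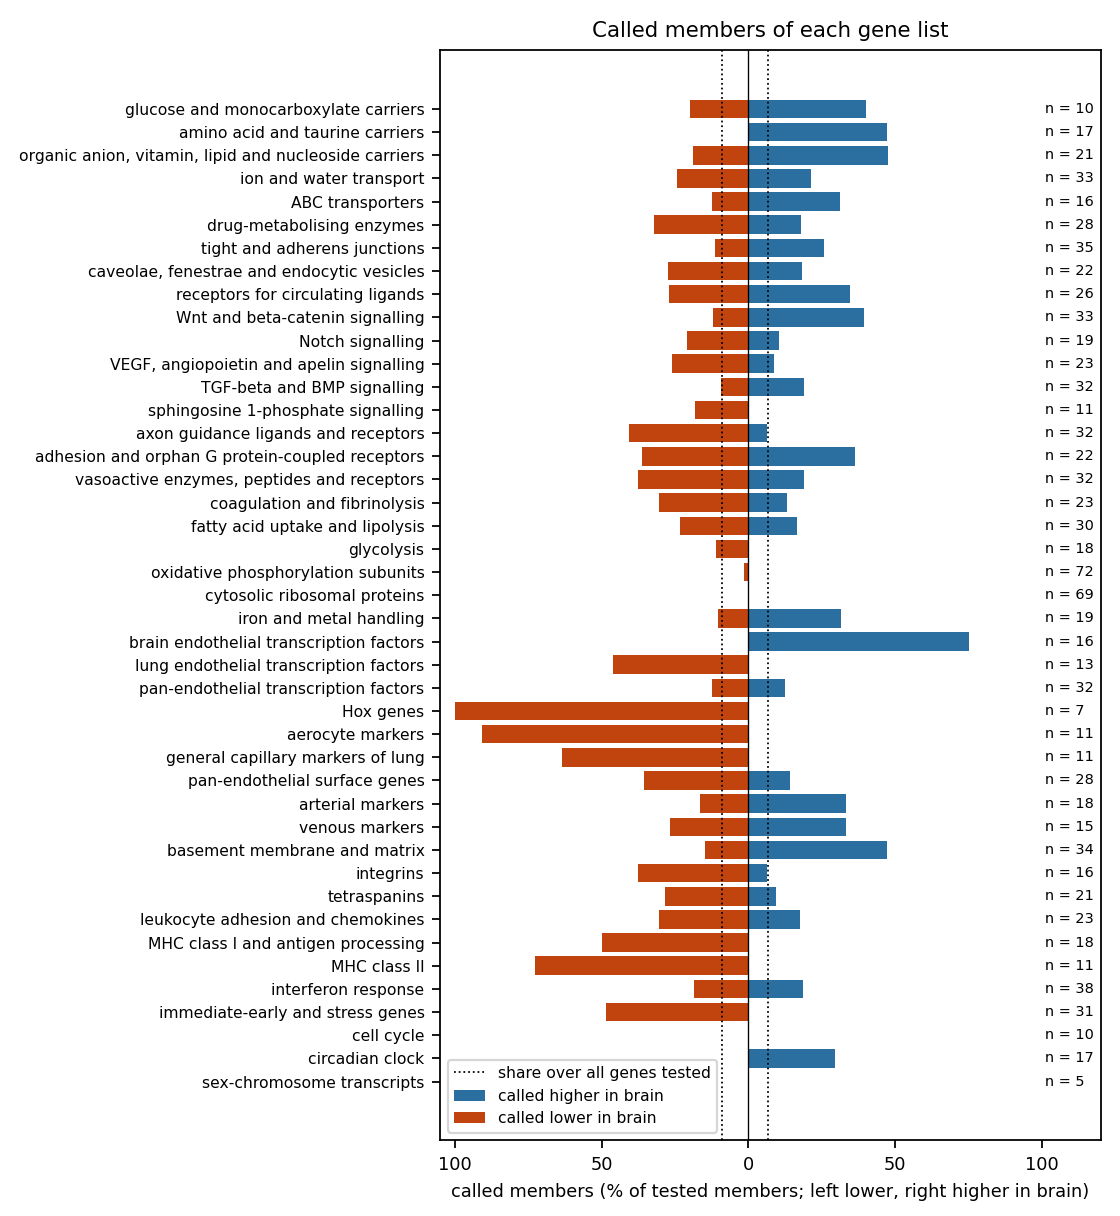
Share of the tested members of each gene list that was called lower (left, orange) or higher (right, blue) in brain, in percent; dotted lines mark 8.88% and 6.7%, the shares over all genes tested, and n is the number of members tested. Lists of carriers, Wnt signalling, brain factors and basement membrane lean to the right. Lists of Hox genes, lung capillary markers, MHC genes and immediate-early and stress genes lean to the left. Brain factors and lung capillary markers were listed for their tissue, so their direction is no independent evidence.

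Carriers for energy substrates and amino acids were higher in brain more often than lower. Of 17 amino acid and taurine carriers tested, 8 were higher in brain and edgeR called 0 lower. At an unadjusted p below 0.05 the number lower was 1, and DESeq2 and limma-voom each called 0. The list had a median log2 fold change of 2.24. Of 10 glucose and monocarboxylate carriers, 4 were higher and 2 lower; 1 was lower without brain library 3, lung library 2 or lung library 3. Slc16a1, the lactate and ketone carrier, had 336, 345 and 343 CPM in brain and 2.82, 4.81 and 1.12 CPM in lung. The brain libraries lay close together and far above every lung library (log2 fold change 6.98, SE 0.49, edgeR adjusted p = 2.76e-06). Bsg, the chaperone that brings monocarboxylate carriers to the membrane, had 2531, 3355 and 3009 CPM in brain and 62.1, 52.6 and 109 CPM in lung, again without overlap (log2 fold change 5.31, SE 0.31, edgeR adjusted p = 7.87e-07).

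The amino acid carriers included genes seen in both tissues and genes seen almost in brain alone. Slc6a6, the taurine carrier, had 4618, 4047 and 4849 CPM in brain and 204, 207 and 216 CPM in lung. It was present in both tissues and 21.6-fold higher in brain (log2 fold change 4.43, SE 0.19, edgeR adjusted p = 7.75e-08). Slc7a1, which carries arginine and lysine, had 736 ± 129.8 CPM in brain and 28.96 ± 9.43 CPM in lung (log2 fold change 4.65, SE 0.33, edgeR adjusted p = 2.76e-06). Slc1a1, a glutamate carrier, had 316 ± 50.9 CPM in brain and 24.7 ± 14.1 CPM in lung (log2 fold change 3.70, SE 0.42, edgeR adjusted p = 8.97e-05). Slc38a3, a glutamine carrier, had 197, 199.7 and 216 CPM in brain and 0.513, 0 and 0 CPM in lung; its lung counts came from lung library 1 alone. Slc3a2, the heavy chain that pairs with Slc7a5, had 210.2, 408 and 254 CPM in brain and 265, 450.0 and 265 CPM in lung. Its libraries overlapped between tissues and it was not called (edgeR adjusted p = 0.786), whereas Slc7a5, its light chain, had 922, 1485 and 1289 CPM in brain and 28.8, 2.06 and 6.18 CPM in lung.

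Of 21 carriers of organic solutes tested, 10 were higher and 4 lower in brain. Slco1c1, which carries thyroxine, had 1276, 1138 and 1226 CPM in brain and 9.83, 1.03 and 7.44 CPM in lung (log2 fold change 7.52, SE 0.56, edgeR adjusted p = 3.94e-06). Slc19a3, a thiamine carrier, had 179.8, 360.2 and 284 CPM in brain and 10.8, 0 and 0.421 CPM in lung; lung library 1 supplied nearly all lung signal, and the log2 fold change moved from 6.00 to 9.85 without it. In the opposite direction Slco2a1, which takes up prostaglandins for breakdown, had 35.1, 33.8 and 26.6 CPM in brain and 3058, 3875 and 2742 CPM in lung. Every lung library lay above every brain library, and the fold was 101 in favour of lung (log2 fold change −6.66, SE 0.25, edgeR adjusted p = 3.46e-08).

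Genes of metal handling were called higher in brain more often than lower. Of 19 iron and metal genes tested, 6 were higher and 2 lower, although 0 were lower without brain library 1 or lung library 2. Tfrc, the transferrin receptor that takes up iron, had 784, 319 and 739 CPM in brain and 9.83, 1.72 and 13.1 CPM in lung (log2 fold change 6.15, SE 0.62, edgeR adjusted p = 3.79e-05). Slc40a1, the iron exporter ferroportin, had 368, 332 and 203 CPM in brain and 1.62, 9.27 and 12.1 CPM in lung. Cp, the ferroxidase that works beside it, had 352, 314 and 269 CPM in brain and 13.3, 2.06 and 18.7 CPM in lung. For all 3 genes every brain library lay above every lung library. Zinc carriers were called in both directions. The importer Slc39a10 had 2550.5, 2194 and 2091 CPM in brain and 133, 126 and 113 CPM in lung (log2 fold change 4.20, SE 0.21, edgeR adjusted p = 2.7e-07). The exporter Slc30a1 had 814 ± 48.3 CPM in brain and 155 ± 65.7 CPM in lung (log2 fold change 2.39, SE 0.32, edgeR adjusted p = 0.000392). Slc39a14, an importer of zinc and iron, was lower in brain with 0.31, 0.167 and 4.24 CPM in brain and 21.5, 47.4 and 28.6 CPM in lung, and its call (edgeR adjusted p = 0.0203) was lost without brain library 1 or lung library 2. Slc31a1, which imports copper, had 336 ± 30.3 CPM in brain and 83.8 ± 26.5 CPM in lung (log2 fold change 2.00, SE 0.29, edgeR adjusted p = 0.000681). The copper pump Atp7a had 156 ± 24.96 CPM in brain and 139 ± 34.6 CPM in lung and was not called (edgeR adjusted p = 0.783).

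Ion channels and pumps were split, with 7 of 33 higher and 8 lower in brain. Scn7a, an atypical sodium channel that senses sodium level, had 0.248, 1.67 and 1.85 CPM in brain and 1843, 1630.3 and 2604 CPM in lung (log2 fold change −10.62, SE 0.62, edgeR adjusted p = 7.87e-07). Piezo2, a stretch-activated channel, had 14.3, 2.01 and 6.58 CPM in brain and 392, 719.6 and 543 CPM in lung; brain library 1 was the highest of brain, and the log2 fold change was −6.17 with it and −7.00 without it. Piezo1, its close relative, had 169 ± 28.1 CPM in brain and 159.6 ± 28.9 CPM in lung and was not called (edgeR adjusted p = 0.877). Aqp1 and Aqp11, both water channels, went opposite ways. Aqp1 had 0.497, 2.01 and 12.8 CPM in brain and 908, 1742 and 1192 CPM in lung. Its call (edgeR adjusted p = 0.00129) was lost without lung library 3, where the adjusted p was 0.0522. Aqp11 had 51.2, 69.1 and 64.4 CPM in brain and 3.76, 5.50 and 6.46 CPM in lung (log2 fold change 3.56, SE 0.51, edgeR adjusted p = 0.000543).

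Efflux pumps differed by member. Of 16 ABC transporters tested, 5 were higher and 2 lower in brain, with 1 lower without brain library 1 or 2 or lung library 2 or 3. Abcc4, which exports conjugated drugs and cyclic nucleotides, had 855, 584 and 811 CPM in brain and 28.6, 13.4 and 7.72 CPM in lung. Abcg2, a multidrug pump, had 246, 247 and 307 CPM in brain and 31.6, 13.7 and 19.1 CPM in lung (log2 fold change 3.62, SE 0.37, edgeR adjusted p = 4.6e-05). Both were detected in every library of both tissues and did not overlap; for Abcc4 the log2 fold change was 5.48, and 6.16 without lung library 1. Abcc6 and Abcc3, close relatives of Abcc4, were each seen in 1 tissue. Abcc6 had 29.2, 67.3 and 72.4 CPM in brain, at least 408-fold above the lung floor. Abcc3 had 87.3, 131 and 121 CPM in lung, at least 2055-fold above the brain floor.

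Drug-metabolising enzymes were called in both directions, with 5 of 28 higher and 9 lower in brain. The monoamine oxidase Maoa, which degrades noradrenaline and serotonin, had 187 ± 49.8 CPM in brain and 27.6 ± 4.05 CPM in lung (log2 fold change 2.76, SE 0.34, edgeR adjusted p = 0.0002). Fmo1, a flavin monooxygenase that oxidises drugs, had 186, 136 and 109 CPM in brain and 1437, 1402 and 1487 CPM in lung (log2 fold change −3.32, SE 0.25, edgeR adjusted p = 3.94e-06). Cyp1a1, the cytochrome induced by aromatic hydrocarbons, was counted in lung alone at 57.2, 18.2 and 35.4 CPM, at least 672-fold above the brain floor. Ahr, the receptor that induces it, had 27.97 ± 16.1 CPM in brain and 245 ± 18.1 CPM in lung (log2 fold change −3.13, SE 0.41, edgeR adjusted p = 0.000313). Both Cyp1a1 and Ahr lay higher in every lung library.

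**Figure D3:**
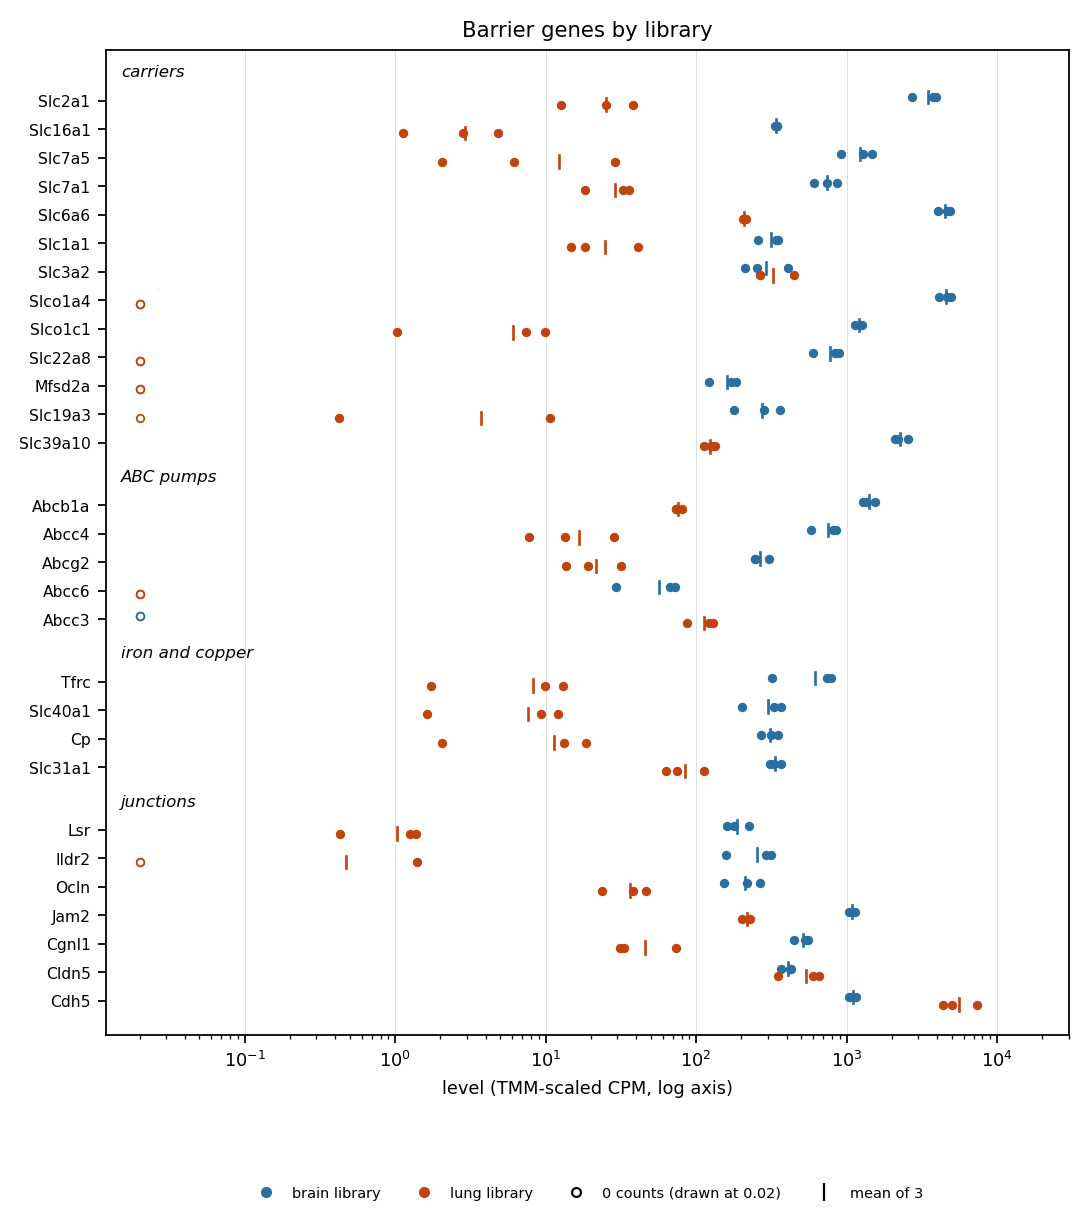
Level of carriers, ABC pumps, iron and copper genes and junction genes in each library (TMM-scaled CPM, log axis), with brain in blue, lung in orange, the mean of 3 as a bar and libraries at 0 counts as open circles drawn at 0.02. Brain libraries sit right of lung libraries for every gene shown except Abcc3 and Cdh5, which are higher in lung, and Slc3a2 and Cldn5, whose tissues overlap.

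Of 35 tight and adherens junction genes tested, 9 were higher and 4 lower in brain. Lsr and Ildr2 encode angulins, which seal tricellular contacts. Lsr had 178, 159.7 and 224 CPM in brain and 0.427, 1.37 and 1.26 CPM in lung (log2 fold change 7.66, SE 0.53, edgeR adjusted p = 2.76e-06). Ildr2 had 293, 159 and 314 CPM in brain and 0, 0 and 1.40 CPM in lung, and its lung counts came from lung library 3 alone. For both angulins every brain library lay above every lung library. Ocln, which strengthens tight junctions, had 211 ± 55.7 CPM in brain and 36.2 ± 11.6 CPM in lung (log2 fold change 2.54, SE 0.37, edgeR adjusted p = 0.00058). Jam2, an adhesion molecule of the junction, had 1096, 1131 and 1034 CPM in brain and 227, 224 and 200.5 CPM in lung (log2 fold change 2.32, SE 0.20, edgeR adjusted p = 1.29e-05). Cgnl1, a junction adaptor, had 512 ± 55.5 CPM in brain and 45.9 ± 23.6 CPM in lung (log2 fold change 3.49, SE 0.36, edgeR adjusted p = 4.88e-05).

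Other junction genes were not called or were higher in lung. Tjp1, the main tight junction scaffold, had 2169 ± 157 CPM in brain and 1477 ± 244 CPM in lung and was not called (edgeR adjusted p = 0.0607). Esam, an endothelial adhesion molecule, had 349 ± 50.9 CPM in brain and 436 ± 30.1 CPM in lung and was not called either (edgeR adjusted p = 0.383). Ctnnb1, β-catenin, and Jup, plakoglobin, can bind the same site on cadherins. Ctnnb1 had 849 ± 136 CPM in brain and 319.7 ± 88.7 CPM in lung (log2 fold change 1.41, SE 0.25, edgeR adjusted p = 0.00257). Jup had 149 ± 19.9 CPM in brain and 829 ± 195 CPM in lung (log2 fold change −2.47, SE 0.25, edgeR adjusted p = 4.02e-05). The directions of the catenins were opposite, and the tissues overlapped for neither. Cdh5, the cadherin they attach to, was higher in lung at 4362, 7410.4 and 5051 against 1041, 1158 and 1088 CPM.

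Vesicle genes were also mixed, with 4 of 22 higher and 6 lower in brain. Mal, a proteolipid of membrane rafts and vesicle sorting, had 315, 444 and 596 CPM in brain and 0.342, 0 and 0.281 CPM in lung (log2 fold change 10.67, SE 0.53, edgeR adjusted p = 2.7e-07). Dnm3, a dynamin that pinches off vesicles, had 294 ± 60.6 CPM in brain and 11.8 ± 6.12 CPM in lung (log2 fold change 4.63, SE 0.42, edgeR adjusted p = 1.74e-05). Cav1, the coat protein of caveolae, had 569, 491 and 539.5 CPM in brain and 1802, 1555 and 1709 CPM in lung (log2 fold change −1.66, SE 0.18, edgeR adjusted p = 8.2e-05). Ehd4, which acts in endosome recycling, had 144, 73.5 and 178 CPM in brain and 1433, 1722 and 1491 CPM in lung (log2 fold change −3.55, SE 0.32, edgeR adjusted p = 1.58e-05). Lung libraries were higher for both without overlap. Clathrin heavy chain, Cltc, had 328 ± 41.3 CPM in brain and 303 ± 59.2 CPM in lung and was not called (edgeR adjusted p = 0.814).

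Receptors for circulating hormones and proteins were called in both directions, 9 higher and 7 lower of 26; 4 were lower without brain library 2 and 3 without lung library 3. Igf1r, the receptor of insulin-like growth factor, had 3311, 3250.1 and 3512 CPM in brain and 257, 503 and 239 CPM in lung (log2 fold change 3.34, SE 0.29, edgeR adjusted p = 1.2e-05). Insr, the insulin receptor, had 764, 895 and 827 CPM in brain and 139, 202 and 213 CPM in lung (log2 fold change 2.17, SE 0.24, edgeR adjusted p = 8.08e-05). Fcgrt, the neonatal Fc receptor that moves antibodies across cells, had 95.3 ± 22.3 CPM in brain and 18.3 ± 6.18 CPM in lung (log2 fold change 2.39, SE 0.44, edgeR adjusted p = 0.00334). All 3 were higher in every brain library than in any lung library. Clec1a, a C-type lectin, had 40.2, 19.3 and 17.1 CPM in brain and 527, 398 and 618 CPM in lung and was higher in lung (log2 fold change −4.33, SE 0.39, edgeR adjusted p = 1.63e-05).

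Wnt signalling is the pathway that neural tissue uses to instruct barrier endothelium, and its receptors, targets and inhibitors were examined by role. Of 33 tested genes, 13 were higher and 4 lower in brain, with a median log2 fold change of 0.62. Among receptors and coreceptors, Reck, which with Gpr124 forms the receptor complex for the neural Wnt ligands, had 145, 285 and 313 CPM in brain and 10.3, 1.03 and 12.4 CPM in lung (log2 fold change 4.90, SE 0.66, edgeR adjusted p = 0.000361). Gpr124 had 116, 154 and 155 CPM in brain and 41.3, 62.2 and 42.3 CPM in lung (log2 fold change 1.55, SE 0.34, edgeR adjusted p = 0.0086). The receptor Fzd6 had 521, 357 and 399 CPM in brain and 29.2, 25.4 and 40.99 CPM in lung (log2 fold change 3.73, SE 0.31, edgeR adjusted p = 9.58e-06). All were higher in brain without overlap. Fzd4, the frizzled receptor bound by the ligand norrin, had 296, 324 and 182 CPM in brain and 329, 193 and 279.5 CPM in lung, and its tissues could not be separated (log2 fold change −0.00, SE 0.30, edgeR adjusted p = 0.999).

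Target genes and feedback inhibitors of the pathway were called in both directions. Axin2, a transcriptional target that feeds back on the pathway, had 162, 115 and 178 CPM in brain and 23.1, 18.5 and 20.9 CPM in lung (log2 fold change 2.86, SE 0.36, edgeR adjusted p = 0.000205). Apcdd1, a membrane inhibitor of Wnt ligands, had 350.5, 304 and 580.4 CPM in brain and 6.24, 2.40 and 3.09 CPM in lung (log2 fold change 6.64, SE 0.47, edgeR adjusted p = 2.76e-06). Notum, an enzyme that inactivates Wnt ligands, had 28.7, 27.6 and 29.3 CPM in brain and 0.0855, 0 and 0.281 CPM in lung. Nkd1 and Nkd2, intracellular inhibitors, were higher in lung. Nkd1 had 104 ± 8.42 CPM in brain and 286 ± 91.8 CPM in lung (log2 fold change −1.45, SE 0.29, edgeR adjusted p = 0.00575). Nkd2 had 5.82 ± 2.63 CPM in brain and 69.9 ± 20.7 CPM in lung (log2 fold change −3.58, SE 0.54, edgeR adjusted p = 0.00082). Wnt5a, a ligand that acts largely outside β-catenin, was counted in brain alone, at 71.2, 39.9 and 47.6 CPM, at least 383-fold above the lung floor.

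The T-cell factor and lymphoid enhancer factor (TCF/LEF) family, to which Lef1 belongs, binds the letters CTTTGA. This short word was searched on both strands in the 250 bases before RefSeq starts (assembly GRCm38.p6), with 19 of 25 genes asked for found in the table. It was present in 14% of 27025 such windows, so a match is a description and not a site. A pair of brain genes with 0 counts in lung hold it and are shown for that reason, in gene orientation 5′ to 3′, with matches in capitals. In Mfsd2a (chr4:122961189-122961438, minus strand) the first match is CTTTGA, 115 bases before the start, and the others are the hypoxia element ACGTG, which 16.6% of windows hold.
Mfsd2a: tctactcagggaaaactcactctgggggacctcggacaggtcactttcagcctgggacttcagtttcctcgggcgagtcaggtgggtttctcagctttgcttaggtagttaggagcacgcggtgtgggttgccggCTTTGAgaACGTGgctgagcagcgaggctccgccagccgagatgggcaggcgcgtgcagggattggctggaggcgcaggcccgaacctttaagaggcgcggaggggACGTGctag
Edn3, at chr2:174760369-174760618 on the plus strand, holds the reverse complement, TCAAAG, 236 bases before its start.
Edn3: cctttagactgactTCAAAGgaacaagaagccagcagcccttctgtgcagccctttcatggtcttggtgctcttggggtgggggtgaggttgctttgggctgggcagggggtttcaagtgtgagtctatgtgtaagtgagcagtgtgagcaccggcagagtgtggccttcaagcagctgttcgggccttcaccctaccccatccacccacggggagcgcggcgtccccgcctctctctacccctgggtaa
Mfsd2a had 122, 172 and 185 CPM and Edn3, the vasoactive peptide endothelin 3, 152, 82.2 and 96.97 CPM in brain. Slco1a4, Slc22a8 and Ptn, which also had 0 counts in lung, hold no TCF/LEF match in their windows, and neither does Axin2. Lef1 holds none in the first of its 4 listed windows, and the others were not searched. No match overlapped another in the windows shown.

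Transcription factors that specify vessels differed between the tissues. Of 16 factors listed for brain endothelium and tested, 12 were higher in brain, with a median log2 fold change of 5.11. They were listed for brain, so their direction is no independent evidence. In edgeR 0 of them were called lower; the unadjusted p was below 0.05 for 1 lower member, and DESeq2 and limma-voom called 0 lower. Zic2, a zinc finger factor of the developing nervous system, had 149.9, 191 and 139 CPM in brain and 0 counts in lung. Foxf2, a forkhead factor known from brain vessels, had 175, 171 and 156 CPM in brain and 1.88, 4.81 and 1.40 CPM in lung (log2 fold change 6.09, SE 0.53, edgeR adjusted p = 1.22e-05). Ebf1 had 384, 265 and 298 CPM in brain and 14.9, 8.59 and 12.9 CPM in lung (log2 fold change 4.68, SE 0.35, edgeR adjusted p = 3.94e-06). Mecom, which acts in arterial endothelium and blood stem cells, had 304, 275 and 284 CPM in brain and 9.83, 9.96 and 19.2 CPM in lung (log2 fold change 4.46, SE 0.37, edgeR adjusted p = 9.27e-06). Each was higher in every brain library.

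Of 13 tested factors listed for lung endothelium, 6 were lower in brain, with a median log2 fold change of −3.23. Here too the direction is no independent evidence, as the factors were listed for lung. Foxf1, the forkhead factor without which lung capillaries fail to form, had 35.6, 102 and 111 CPM in brain and 691, 859 and 776 CPM in lung (log2 fold change −3.23, SE 0.39, edgeR adjusted p = 0.00015). Its divergent neighbour Fendrr had 125, 195 and 162 CPM in brain and 1803, 3501 and 2507 CPM in lung; whether strand was used in counting is not known here, so reads of the pair may be shared. Meis1 and Meis2, homeobox cofactors of Hox proteins, were nearly absent from brain. Meis1 had 0.621, 0.167 and 0 CPM in brain and 213, 124 and 220.1 CPM in lung. Meis2 had 0.683, 0.725 and 0.0975 CPM in brain and 119.9, 80.04 and 77.1 CPM in lung. Tbx3 was present in both tissues at 195, 236 and 229 CPM in brain and 689, 831 and 749 CPM in lung (log2 fold change −1.78, SE 0.22, edgeR adjusted p = 0.000155). Its relative Tbx2 had 0.869, 0.112 and 0 CPM in brain and 137, 289 and 185 CPM in lung.

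Foxf2 and Foxf1 are close paralogs and were called in opposite directions. The fold for Foxf2 was 62.2 in favour of brain, and for Foxf1 9.38 in favour of lung. Of 39 Hox genes, 7 passed the filter on low counts and all 7 were lower in brain. They passed through their lung level, so their direction follows from the filter. Of the 39, 32 had 0 counts in every brain library and 23 had 0 counts in every lung library. Those that passed are anterior members of the A and B clusters, such as Hoxa2 at 22.1, 20.3 and 8.42 CPM and Hoxa4 at 4.70, 2.75 and 4.77 CPM in lung with 0 counts in brain.

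MEIS factors bind the letters TGACAG, which 16% of the 27025 windows hold on either strand. Hpgd and Scn7a, among the genes furthest above brain in lung, hold it and are shown with their matches in capitals. In Hpgd (chr8:56294302-56294551, plus strand) the match TGACAG lies 64 bases before the start, and ACAATG, a word bound by SOX factors and held by 11% of windows, lies at 91 bases.
Hpgd: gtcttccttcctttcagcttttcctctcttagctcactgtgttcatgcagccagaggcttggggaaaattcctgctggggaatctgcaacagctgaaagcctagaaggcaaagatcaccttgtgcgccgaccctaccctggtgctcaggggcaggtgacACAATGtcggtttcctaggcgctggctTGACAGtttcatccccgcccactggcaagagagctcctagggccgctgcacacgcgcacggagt
Scn7a, at chr2:66784911-66785160 on the minus strand, holds the reverse complement, CTGTCA, 139 bases before the start.
Scn7a: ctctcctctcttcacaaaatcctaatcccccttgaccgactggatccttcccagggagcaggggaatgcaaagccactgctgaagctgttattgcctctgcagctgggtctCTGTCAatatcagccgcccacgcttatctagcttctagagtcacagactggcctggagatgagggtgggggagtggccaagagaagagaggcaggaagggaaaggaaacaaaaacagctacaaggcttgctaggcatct
Tek, which was not called between tissues, also holds a match, and Glp1r, Prx and Ednrb, all higher in lung, hold none in these windows.

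Of 32 factors general to endothelium, 4 were higher and 4 lower in brain. Erg had 478, 336 and 408 CPM in brain and 317, 447 and 280.1 CPM in lung. Ets1 had 312 ± 22.2 CPM in brain and 329 ± 67.6 CPM in lung. The flow-responsive factor Klf2 had 241 ± 48.7 CPM in brain and 211 ± 29.5 CPM in lung. All 3 overlapped between tissues and were not called, with edgeR adjusted p-values of 0.62, 0.873 and 0.699. SOXF factors, which specify arteries and lymphatics, differed by member. Sox17 had 498, 293 and 336 CPM in brain and 98.9, 77.6 and 73.1 CPM in lung (log2 fold change 2.17, SE 0.29, edgeR adjusted p = 0.000373). Sox7 had 186, 124 and 186 CPM in brain and 630.3, 440.4 and 461 CPM in lung (log2 fold change −1.63, SE 0.26, edgeR adjusted p = 0.00137). Sox18 had 185, 198 and 306 CPM in brain and 205, 531 and 261 CPM in lung, which overlapped (edgeR adjusted p = 0.375). Epas1, the hypoxia-inducible factor abundant in endothelium, had 4911, 4658 and 5634 CPM in brain and 12371, 11901 and 9556 CPM in lung (log2 fold change −1.15, SE 0.16, edgeR adjusted p = 0.000428).

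**Figure D4:**
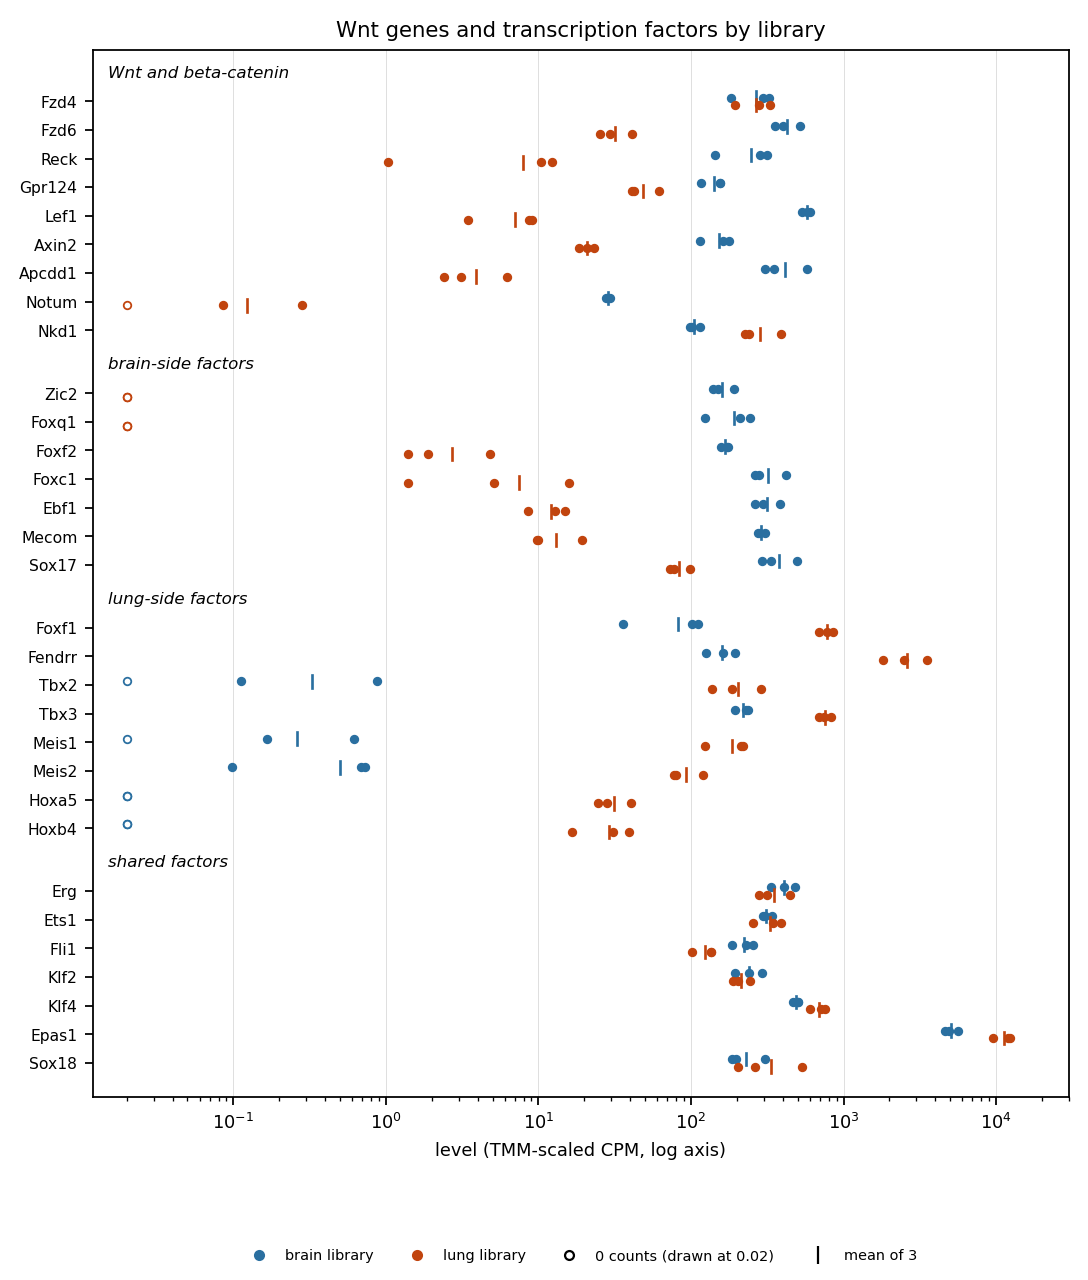
Level of Wnt genes and transcription factors in each library (TMM-scaled CPM, log axis), with brain in blue, lung in orange, the mean of 3 as a bar and libraries at 0 counts as open circles drawn at 0.02. Zic2 and Foxq1 have 0 counts in every lung library and Hoxa5 and Hoxb4 in every brain library, while Fzd4, Erg, Ets1, Klf2 and Sox18 overlap between tissues.

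Genes that set vessel tone were called lower in brain more often than higher, with 6 of 32 higher and 12 lower in brain and a median log2 fold change of −1.16. Ace, which makes angiotensin II and breaks down bradykinin, had 32.5, 22.7 and 49.4 CPM in brain and 2224, 3214 and 2273 CPM in lung (log2 fold change −6.20, SE 0.34, edgeR adjusted p = 5.21e-07). Ednrb, the endothelin receptor of endothelium that clears endothelin from blood, had 17.9, 20.6 and 12.7 CPM in brain and 694, 719.6 and 803 CPM in lung (log2 fold change −5.44, SE 0.29, edgeR adjusted p = 4.57e-07). Calcrl, the receptor of calcitonin gene-related peptide and adrenomedullin, had 259, 176 and 221 CPM in brain and 3719, 2495 and 2577 CPM in lung (log2 fold change −3.75, SE 0.24, edgeR adjusted p = 1.71e-06). Ramp2, its adrenomedullin partner, had 304 ± 48.3 CPM in brain and 1200.1 ± 378 CPM in lung (log2 fold change −1.98, SE 0.26, edgeR adjusted p = 0.000295). All 4 were higher in lung without overlap.

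Receptors for natriuretic peptides were also higher in lung. Npr1, which signals through cyclic GMP, had 25.3, 23.6 and 11.7 CPM in brain and 95.3, 166 and 79.2 CPM in lung (log2 fold change −2.49, SE 0.46, edgeR adjusted p = 0.0034). Npr3, the clearance receptor, had 0, 5.58 and 0.0487 CPM in brain and 533, 309 and 349.9 CPM in lung; brain library 2 supplied most brain signal, and the call was lost without lung library 1 (edgeR adjusted p = 0.0695) or lung library 3 (edgeR adjusted p = 0.128). Other genes of this list were higher in brain. Nos3, the endothelial nitric oxide synthase, had 91.5, 102 and 135 CPM in brain and 10.9, 16.1 and 6.60 CPM in lung (log2 fold change 3.30, SE 0.46, edgeR adjusted p = 0.000482). Pde2a, which degrades cyclic nucleotides, had 252, 220.3 and 312 CPM in brain and 4.62, 3.09 and 6.74 CPM in lung (log2 fold change 5.72, SE 0.40, edgeR adjusted p = 2.76e-06). The peptide gene Edn3 lay at least 799-fold above the lung floor (edgeR adjusted p = 1.21e-05).

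Of 11 markers of aerocytes tested, 10 were lower in brain and 1 was not called, and of 11 markers of general capillary cells 7 were lower and 4 not called. These markers were named from lung, so their direction is no independent evidence. Prx, the scaffold periaxin, had 1.49, 0.446 and 1.17 CPM in brain and 433, 699 and 594 CPM in lung (log2 fold change −9.11, SE 0.49, edgeR adjusted p = 4.57e-07). Emp2, a tetraspan membrane protein, had 88.6, 63.5 and 68.02 CPM in brain and 1373, 1141 and 1740.3 CPM in lung (log2 fold change −4.27, SE 0.26, edgeR adjusted p = 1.1e-06). Aplnr, the apelin receptor of general capillary cells, had 6.46, 16.95 and 9.94 CPM in brain and 134, 76.9 and 149 CPM in lung (log2 fold change −3.43, SE 0.49, edgeR adjusted p = 0.000552). Gpihbp1, which anchors lipoprotein lipase, had 0, 0.279 and 0.0975 CPM in brain and 118, 234 and 115 CPM in lung. Other markers were not called. Kitl, listed for aerocytes, had 982, 643 and 760.0 CPM in brain and 594, 374 and 553 CPM in lung. Sema3c, listed for general capillaries, had 619, 532 and 588 CPM in brain and 525, 391 and 453 CPM in lung. Brain lay above lung for both by a margin too small for a call (edgeR adjusted p = 0.106 and 0.325).

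Of 23 genes of growth factor signalling, 2 were higher and 6 lower in brain. Vegfa, the main endothelial growth factor and a product of aerocytes, had 3.60, 1.67 and 6.53 CPM in brain and 509, 555 and 410.2 CPM in lung (log2 fold change −6.96, SE 0.50, edgeR adjusted p = 3.41e-06). Its receptor Flt1 was higher in brain at 2964, 3204 and 3127 against 629, 686 and 609 CPM. Kdr, the signalling receptor, had 406 ± 39.6 CPM in brain and 884 ± 212 CPM in lung (log2 fold change −1.12, SE 0.23, edgeR adjusted p = 0.00675), but without lung library 3 its log2 fold change was −0.95, short of a call. The neuropilin coreceptors were called in opposite directions. Nrp2 had 141 ± 20.9 CPM in brain and 18.7 ± 2.41 CPM in lung (log2 fold change 2.91, SE 0.36, edgeR adjusted p = 0.000182). Nrp1 had 342 ± 94.6 CPM in brain and 810.4 ± 153 CPM in lung (log2 fold change −1.24, SE 0.26, edgeR adjusted p = 0.0066).

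Transforming growth factor β (TGF-β) and bone morphogenetic protein (BMP) genes were called in both directions, with 6 of 32 higher and 3 lower in brain. On the TGF-β side, the ligand Tgfb2 had 379, 296 and 353 CPM in brain and 4.87, 9.27 and 3.79 CPM in lung (log2 fold change 5.90, SE 0.41, edgeR adjusted p = 2.76e-06). Its receptor Tgfbr2 had 716, 642 and 808 CPM in brain and 167, 128 and 182 CPM in lung (log2 fold change 2.18, SE 0.24, edgeR adjusted p = 7.16e-05). Ltbp4, which stores latent ligand in matrix, had 561 ± 96.7 CPM in brain and 70.3 ± 10.96 CPM in lung (log2 fold change 3.00, SE 0.26, edgeR adjusted p = 1.31e-05). All were higher in brain. On the BMP side, the receptor Acvrl1 had 205, 197 and 171 CPM in brain and 802, 1352 and 819 CPM in lung (log2 fold change −2.38, SE 0.26, edgeR adjusted p = 7.39e-05). The inhibitor Smad6 had 25.00 ± 7.39 CPM in brain and 255 ± 107 CPM in lung (log2 fold change −3.35, SE 0.40, edgeR adjusted p = 0.000155). The ligand Bmp6 had 3.42, 0.335 and 0.195 CPM in brain and 220.1, 423 and 229 CPM in lung. All 3 were higher in lung without overlap. With DESeq2, 6 members of the list were lower in brain.

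Notch ligands were called in both directions. Jag1 had 138 ± 45.6 CPM in brain and 41.05 ± 11.03 CPM in lung (log2 fold change 1.74, SE 0.39, edgeR adjusted p = 0.00953). Jag2 had 112 ± 22.3 CPM in brain and 26.4 ± 12.7 CPM in lung (log2 fold change 2.07, SE 0.43, edgeR adjusted p = 0.00698). Both were higher in brain. Dll4, the tip cell ligand, had 67.9 ± 4.44 CPM in brain and 167 ± 54.8 CPM in lung, and its call was lost without brain library 1 (adjusted p = 0.0578), brain library 2 (0.0535) or lung library 2 (0.0582). Of 19 tested, 2 were higher and 4 lower, with 2 lower without any of those libraries. Guidance genes were lower in brain more often than higher, with 13 of 32 lower and 2 higher in brain, or 1 higher without lung library 2 or 3. Sema3f, a secreted repellent, had 2.48, 4.85 and 2.49 CPM in brain and 189, 412 and 267 CPM in lung (log2 fold change −6.46, SE 0.47, edgeR adjusted p = 3.61e-06). Its receptor Plxna1 had 34.5, 66.5 and 68.5 CPM in brain and 682, 871 and 704 CPM in lung (log2 fold change −3.73, SE 0.31, edgeR adjusted p = 1e-05). The ephrin Efnb2 had 203, 154 and 109.9 CPM in brain and 974, 912 and 813 CPM in lung (log2 fold change −2.53, SE 0.26, edgeR adjusted p = 5.24e-05). All 3 were higher in every lung library.

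Extracellular matrix had 16 of 34 tested members higher in brain and 5 lower, or 2 lower without lung library 2. Agrn, the heparan sulfate proteoglycan agrin, had 355, 385 and 448 CPM in brain and 77.2, 96.2 and 102 CPM in lung (log2 fold change 2.11, SE 0.26, edgeR adjusted p = 0.000158). The laminin chain Lama4 had 96.9, 109 and 87.7 CPM in brain and 5.39, 7.56 and 9.41 CPM in lung (log2 fold change 3.72, SE 0.44, edgeR adjusted p = 0.000148). Sparc and Sparcl1, matricellular relatives, were higher in brain. Sparc had 829.7 ± 95.2 CPM in brain and 258 ± 43.7 CPM in lung (log2 fold change 1.69, SE 0.22, edgeR adjusted p = 0.000334). Sparcl1 had 1098 ± 96.3 CPM in brain and 129.9 ± 38.9 CPM in lung (log2 fold change 3.08, SE 0.26, edgeR adjusted p = 1.17e-05). The linker proteins nidogen 1 and 2 went opposite ways. Nid1 had 145, 167 and 172 CPM in brain and 514, 456 and 424 CPM in lung (log2 fold change −1.53, SE 0.23, edgeR adjusted p = 0.000758). Nid2 had 51.7 ± 12.97 CPM in brain and 3.61 ± 2.13 CPM in lung (log2 fold change 3.81, SE 0.61, edgeR adjusted p = 0.00122). The type IV collagen chain Col4a1 had 394 ± 27.6 CPM in brain and 639 ± 121 CPM in lung. Its partner Col4a2 had 648 ± 61.9 CPM in brain and 1142 ± 469 CPM in lung. Neither was called (edgeR adjusted p = 0.0527 and 0.062). Mural cells also make matrix, and their markers other than Des summed to more in brain libraries 2 and 3 than in any lung library, with the values given above. Their part was not tested.

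Integrins, which are matrix receptors, had 1 of 16 members higher and 6 lower in brain. Itga6, a laminin receptor subunit, had 651 ± 109 CPM in brain and 259 ± 95.99 CPM in lung (log2 fold change 1.33, SE 0.29, edgeR adjusted p = 0.00916). Itga3, which also binds laminin, had 27.6, 35.3 and 15.6 CPM in brain and 173, 419.8 and 311 CPM in lung (log2 fold change −3.52, SE 0.43, edgeR adjusted p = 0.000157). Itga2, of the collagen receptor, had 0.931, 0.558 and 1.02 CPM in brain and 41.9, 59.1 and 57.8 CPM in lung (log2 fold change −5.96, SE 0.62, edgeR adjusted p = 4.78e-05). Itgb1, the common partner subunit, had 369, 218 and 291 CPM in brain and 393, 305 and 316 CPM in lung with overlap and no call (edgeR adjusted p = 0.66). Among tetraspanins, which organise integrins in the membrane, 2 were higher and 6 lower of 21. Tspan18 had 65.4, 69.8 and 60.4 CPM in brain and 1837, 3659 and 2661 CPM in lung (log2 fold change −5.38, SE 0.29, edgeR adjusted p = 4.57e-07).

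Adhesion and orphan G protein-coupled receptors had as many higher as lower calls, with 8 of 22 higher and 8 lower in brain. Eltd1, an adhesion receptor of vessels, had 1387, 1438 and 1251 CPM in brain and 728, 500.1 and 561 CPM in lung (log2 fold change 1.19, SE 0.21, edgeR adjusted p = 0.00217). Gpr4, which senses acid, had 195 ± 54.1 CPM in brain and 58.8 ± 19.8 CPM in lung (log2 fold change 1.74, SE 0.35, edgeR adjusted p = 0.00571). Cd97, an adhesion receptor that binds the complement regulator CD55, had 365, 468 and 489 CPM in brain and 1727, 1855 and 1821 CPM in lung (log2 fold change −2.03, SE 0.20, edgeR adjusted p = 2.95e-05). Lphn1, a latrophilin, had 61.2 ± 24.8 CPM in brain and 485 ± 146 CPM in lung (log2 fold change −2.99, SE 0.36, edgeR adjusted p = 0.000155). Each of the 4 was without overlap. Gpr116, an adhesion receptor abundant in lung capillaries, had 6008, 4472 and 5799.8 CPM in brain and 7409.8, 6502 and 7182 CPM in lung and was not called (edgeR adjusted p = 0.153).

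Markers of arteries and of veins were called in both directions. Of 18 arterial markers 6 were higher and 3 lower in brain, or 1 lower without lung library 2, and of 15 venous markers 5 were higher and 4 lower. The arterial matrix protein Fbln5 had 48.2, 36.1 and 54.8 CPM in brain and 5.90, 4.47 and 2.25 CPM in lung (log2 fold change 3.46, SE 0.59, edgeR adjusted p = 0.00198). It was higher in every brain library. Hey1, the arterial Notch target, had 130.3, 117 and 112 CPM in brain and 148, 152 and 81.7 CPM in lung, overlapped and was not called (edgeR adjusted p = 0.891).

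Of 23 genes of clotting and clot removal tested, 3 were higher and 7 lower in brain. Thbd, thrombomodulin, which turns thrombin into an anticoagulant, had 625, 422 and 344 CPM in brain and 3713, 2542 and 2335 CPM in lung (log2 fold change −2.63, SE 0.27, edgeR adjusted p = 4.49e-05). Plaur, the urokinase receptor, had 1.30, 3.01 and 3.61 CPM in brain and 98.9, 156 and 99.4 CPM in lung (log2 fold change −5.47, SE 0.54, edgeR adjusted p = 3.43e-05). Plat, tissue plasminogen activator, had 137, 280.3 and 181 CPM in brain and 66.1, 45.7 and 30.6 CPM in lung and was higher in brain (log2 fold change 2.07, SE 0.39, edgeR adjusted p = 0.0039). Vwf, the von Willebrand factor, had 193, 255 and 401 CPM in brain and 267, 461 and 179 CPM in lung; the tissues overlapped and it was not called (edgeR adjusted p = 0.899). The platelet gene Ppbp had 0, 1.34 and 0 CPM in brain and 65.9, 6.87 and 199.6 CPM in lung, which varied widely between the lung libraries.

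Of 30 genes of fatty acid handling tested, 5 were higher and 7 lower in brain. Mgll, which cleaves monoglycerides, was higher in lung, as Gpihbp1 was above, with 26.3, 14.4 and 12.8 CPM in brain and 105, 136 and 90.6 CPM in lung (log2 fold change −2.63, SE 0.43, edgeR adjusted p = 0.0015). Elovl7, which elongates fatty acids, was higher in brain with 526, 589 and 203 CPM in brain and 1.97, 2.06 and 2.81 CPM in lung (log2 fold change 7.58, SE 0.50, edgeR adjusted p = 2.08e-06). Ppard, a nuclear receptor for fatty acids, was higher in brain as well with 139.8 ± 27.7 CPM in brain and 23.3 ± 4.80 CPM in lung (log2 fold change 2.59, SE 0.37, edgeR adjusted p = 0.000531). Subunits of oxidative phosphorylation and ribosomal proteins had few calls against the background of 15.6%. Of 72 subunits of oxidative phosphorylation 1, Cox4i2, was lower in brain. The count stayed at 1 without brain library 1 and was 0 without each of the other 5 libraries, with library size alone, a minimum of 10 counts, the liver libraries, the replicate block or the test against the minimum fold, and 3 with DESeq2. Of 18 glycolytic genes 2 were lower, or 11.1%, which is near the background. The number was 0 without brain library 3 or lung library 2. Of 69 ribosomal proteins edgeR called 0, while DESeq2 called 5 lower and limma-voom 0. Unadjusted p-values below 0.05 stood beside 9 lower and 0 higher members. The median log2 fold change of the 69 was −0.58. Every lung library lay above every brain library for 24 of them, and the reverse held for 2. Over all tested genes these shares were 18.8% and 17.1%. Of 10 cell cycle genes, too few to set against the background, edgeR again called 0. Unadjusted p-values below 0.05 stood beside 2 lower members, and DESeq2 and limma-voom each called 1 lower.

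**Figure D5:**
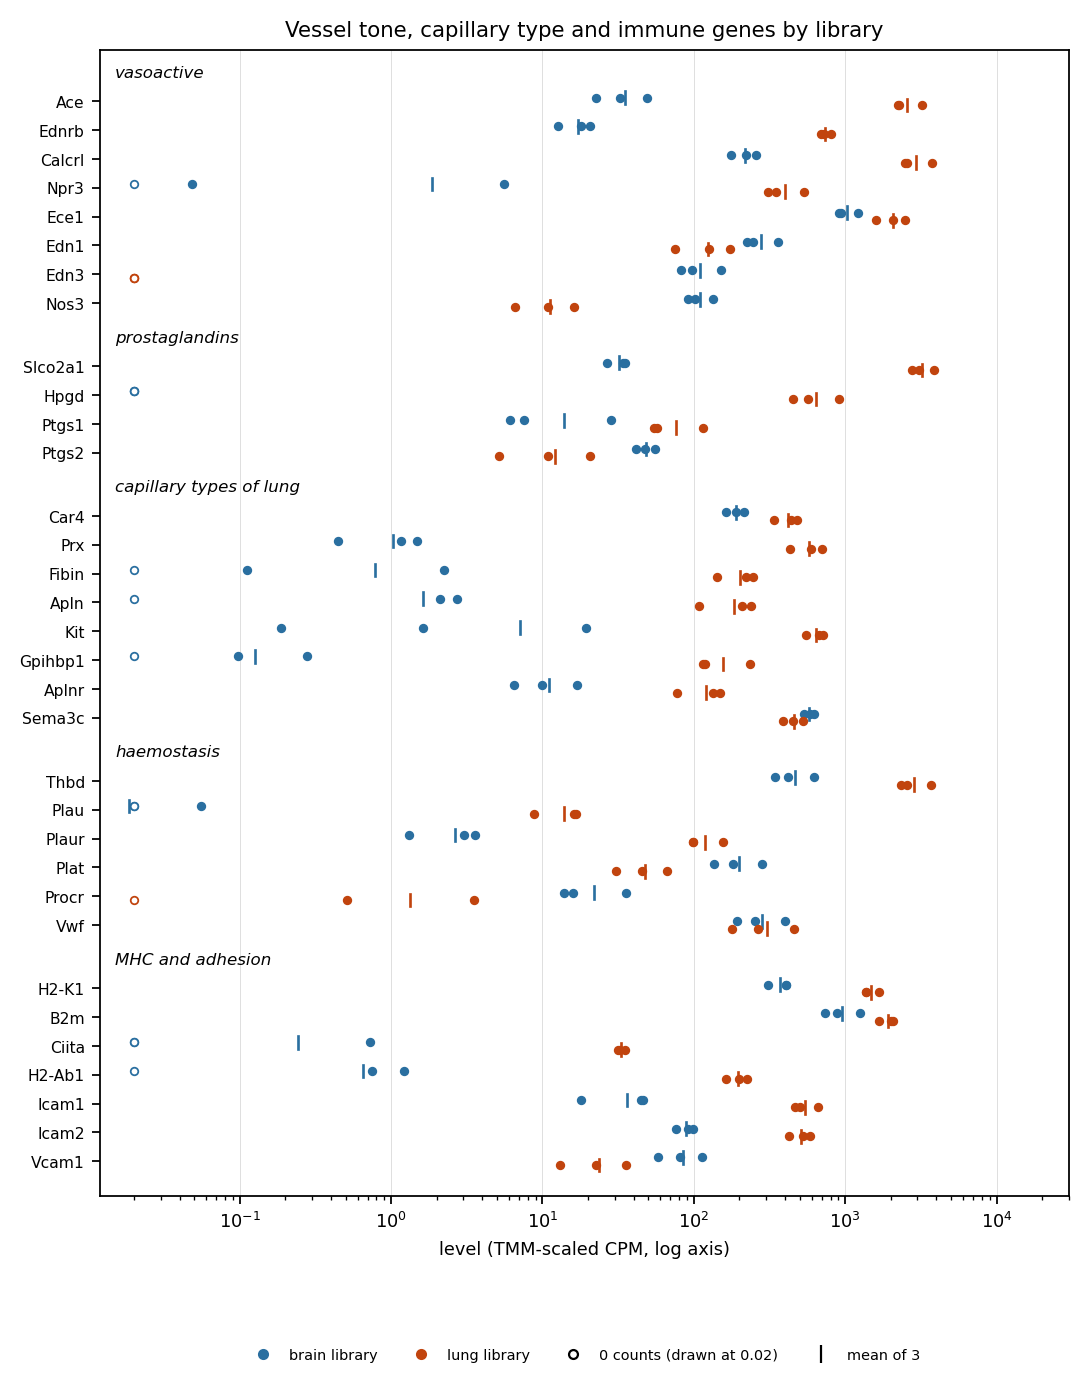
Level of vasoactive, prostaglandin, lung capillary, haemostasis and immune genes in each library (TMM-scaled CPM, log axis), with brain in blue, lung in orange, the mean of 3 as a bar and libraries at 0 counts as open circles drawn at 0.02. Lung libraries sit right of brain libraries for most genes; Edn1, Edn3, Nos3, Ptgs2, Plat, Procr, Vcam1 and Sema3c have the higher mean in brain, and Vwf overlaps.

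Of 18 genes of MHC class I and its peptide supply, 9 were lower in brain and 9 were not called, with a median log2 fold change of −1.52. The class I heavy chain H2-K1 had 403, 409 and 307 CPM in brain and 1380.4, 1681 and 1375 CPM in lung (log2 fold change −1.99, SE 0.21, edgeR adjusted p = 5.57e-05). H2-D1, another heavy chain, had 319.8, 305 and 195 CPM in brain and 1207, 1815 and 1528 CPM in lung (log2 fold change −2.47, SE 0.26, edgeR adjusted p = 4.9e-05). These genes are near-identical in parts, and counting could split their reads. Tap1, which pumps peptides to them, had 30.8 ± 5.82 CPM in brain and 95.6 ± 10.1 CPM in lung (log2 fold change −1.63, SE 0.37, edgeR adjusted p = 0.0109). Class II genes showed 8 of 11 lower, and H2-Ab1 had 0.745, 0 and 1.22 CPM in brain and 163, 224 and 197 CPM in lung. Ciita, the activator of class II genes, had 0, 0.725 and 0 CPM in brain and 31.5, 32.3 and 35.1 CPM in lung. Beside them the lymphocyte and granulocyte markers summed to 111, 185 and 152 CPM in the lung libraries, with Cd3e at 8.55, 2.40 and 12.6 CPM.

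Adhesion molecules for leukocytes did not share a direction, with 4 of 23 higher and 7 lower; 2 were higher without brain library 3 or lung library 3. Icam1 and Icam2 are ligands of leukocyte integrins. Icam1 had 17.9, 46.2 and 44.6 CPM in brain and 664, 506 and 464 CPM in lung (log2 fold change −3.91, SE 0.38, edgeR adjusted p = 3.32e-05). Icam2 had 98.98, 76.00 and 91.8 CPM in brain and 423, 585 and 526 CPM in lung (log2 fold change −2.52, SE 0.25, edgeR adjusted p = 3.95e-05). Both were higher in lung without overlap. Cxcl12, a chemokine that retains blood progenitors and marks arterial endothelium in brain, had 3636, 4551 and 4579 CPM in brain and 419, 229 and 302 CPM in lung and was higher in brain (log2 fold change 3.75, SE 0.25, edgeR adjusted p = 2.08e-06). Vcam1 had 81.03, 58.3 and 114 CPM in brain and 35.4, 13.1 and 22.5 CPM in lung, and its call was lost without brain library 3 (edgeR adjusted p = 0.0855), lung library 2 (edgeR adjusted p = 0.057) or lung library 3 (edgeR adjusted p = 0.074).

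Interferon genes were balanced, 7 higher and 7 lower of 38, and the number higher was 2 to 4 when any of the 6 libraries was left out. Ifnar1, a receptor chain for type I interferon, had 732, 389 and 602 CPM in brain and 125, 139 and 131 CPM in lung (log2 fold change 2.12, SE 0.27, edgeR adjusted p = 0.000254). The antiviral Ifitm2 had 83.1, 87.98 and 94.97 CPM in brain and 321, 322 and 389 CPM in lung (log2 fold change −1.96, SE 0.25, edgeR adjusted p = 0.000254). Irf1, a factor induced by interferon γ, had 43.2, 66.7 and 41.6 CPM in brain and 422, 239 and 366 CPM in lung (log2 fold change −2.76, SE 0.33, edgeR adjusted p = 0.000145). The receptor lay higher in brain and the other 2 genes higher in lung, each without overlap.

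Immediate-early genes respond within minutes to many stimuli. Of 31 immediate-early and stress genes tested, 15 were lower in brain and 16 were not called by edgeR. Called higher in brain were 0 by edgeR, with 2 at an unadjusted p below 0.05, 1 by DESeq2, 0 by limma-voom, 2 with a replicate block and 1 without lung library 1. The test against the minimum fold called 9 lower. Egr1 had 429.8, 315 and 321 CPM in brain and 4507, 6772 and 4782 CPM in lung (log2 fold change −3.91, SE 0.23, edgeR adjusted p = 7.87e-07). Atf3 had 117, 73.2 and 95.5 CPM in brain and 808, 519.7 and 581 CPM in lung (log2 fold change −2.74, SE 0.28, edgeR adjusted p = 4.6e-05). Ier3 had 38.9, 71.6 and 67.7 CPM in brain and 959, 806 and 631 CPM in lung (log2 fold change −3.75, SE 0.31, edgeR adjusted p = 8.93e-06). Zfp36, which degrades unstable messages, had 534, 537 and 622 CPM in brain and 2527, 2972 and 1956 CPM in lung (log2 fold change −2.14, SE 0.21, edgeR adjusted p = 2.91e-05). All 4 were higher in every lung library. Other members were not called. Fos had 652, 262 and 470.2 CPM in brain and 818, 843 and 665 CPM in lung. The heat shock gene Hspa1a had 1022 ± 528 CPM in brain and 783 ± 318 CPM in lung. Hspa8, its constitutive relative, had 432 ± 18.1 CPM in brain and 584 ± 135 CPM in lung. None of these 3 was called (edgeR adjusted p = 0.123, 0.567 and 0.248). Hspa1a shares most of its sequence with Hspa1b, so reads of the pair may be split. Per the labels the myelin spin was applied to brain alone, so tissue and that step cannot be told apart.

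Of 17 clock genes tested, 5 were higher in brain and 12 were not called by edgeR, with 3 higher without brain library 3. Per3 had 56.3, 56.4 and 114 CPM in brain and 5.30, 9.62 and 2.95 CPM in lung (log2 fold change 3.70, SE 0.59, edgeR adjusted p = 0.00123). Nr1d1, a repressor of the clock, had 299.9, 166 and 392 CPM in brain and 105, 34.01 and 68.8 CPM in lung (log2 fold change 2.04, SE 0.44, edgeR adjusted p = 0.00788). Clock, the activator that names the system, had 197 ± 33.4 CPM in brain and 155 ± 28.04 CPM in lung. Bhlhe40, another repressor, had 246 ± 29.6 CPM in brain and 169.8 ± 29.1 CPM in lung. Neither was called (edgeR adjusted p = 0.46 and 0.207).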

How the data were processed

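Bulk RNA was measured in 3 brain and 3 lung libraries of sorted endothelial cells. The values are raw counts per gene symbol that the authors deposited and the 6 columns were tied to samples by their titles. Per the submitters' processing notes the study used builds mm10 and mm9 and, among its tools, HTSeq 0.6.1, SAMtools 1.10.2, TopHat and Bowtie2. The aligner and build behind the RNA counts are not given in the sources used here. The same holds for strand use in counting, and values of overlapping, antisense and near-identical genes are therefore uncertain. Low values are limited by the depth of each library, which the report gives. Rn45s took 12.2% to 19.8% and Malat1 2.46% to 7.74% of counts.

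Tests ran in edgeR 4.0.16 under R 4.3.3: filterByExpr kept 12137 genes, TMM scaled the libraries, and a robust quasi-likelihood fit, 1 mean for each tissue, gave a biological coefficient of variation of 0.671. Standard errors of log2 fold changes come from the quasi-likelihood F statistic. A tissue with 0 counts was set to a floor of 3 counts over its libraries, and folds against it are lower bounds. In simulated counts of 12137 genes with 200 changed, this test of brain against lung recovered 0% of 2-fold, 25.5% of 4-fold and 70% of 16-fold changes with 0, 5 and 9 false calls. The simulation changed fewer genes than the 1891 called in the data, so its shares do not give the recovery in the data. A true 2-fold change also lies on the minimum fold itself, where any lower estimate fails. A missing call is in any case no evidence of equal levels. Chi-square values per degree of freedom of 34 to 145 between libraries of a tissue showed no repeated library.

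The members, the 56 gene lists and the tests were chosen with earlier results of these data known. Named genes were, for each direction, the 12 called genes of largest fold without overlap and with at least 50 CPM in the higher tissue, up to 6 called members of each list by fold, the highest member of a list without calls, and 14 fixed endothelial genes. A further 82 genes, most of them list members, were added after their values were seen. Of 24176 symbols, 22805 matched a RefSeq symbol and 1255 more a synonym. Promoter windows are from RefSeq; Foxq1, Zic2, Slc6a2, Tbx2, Foxf1 and Gpihbp1 were asked for and not matched. Alternatives were other scalings (DESeq2 1.42.0 size factors, library size alone, Rn45s and Malat1 taken out), other filters, the DESeq2 Wald test, limma-voom (limma 3.58.1), a fit with the 3 liver libraries, a replicate block, no minimum fold, a test against the minimum fold, and each library left out in turn. Some genes are not reported here. Liver, open-chromatin and single-cell samples were not analysed here otherwise.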

Additional observations from a re-analysis of the deposited data

How the results depend on the processing

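In none of the alternatives did a call turn to the other direction, 0 of 1891. The total of 1891 (813 higher, 1078 lower in brain) lay within 1.5 times under every scaling, filter and tool tried, from 1625 with the 3 liver libraries in the fit to 2560 with the DESeq2 Wald test, which called 1097 higher and 1463 lower. Only the test against the minimum fold moved it further, to 1153 with 451 higher and 702 lower, since it asks for more than a log2 fold change of 1. Leaving out each replicate in turn gave 1390 to 1685 calls, 581 to 726 higher and 809 to 959 lower; the lowest total was without lung replicate 3. Limma-voom called 649 higher and 1187 lower.

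Whether replicate numbers pair the samples is not settled here. Deviations of same-numbered brain and lung libraries correlated at 0.00256, 0.00179 and 0.00138. Every library correlated best with the library of its own number in the other tissue, but values this close to 0 cannot decide pairing. With the number as a replicate block 1775 genes were called, 788 higher and 987 lower.

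Of 348 named genes tested, 258 kept their side of the threshold in all alternatives, 85 lost a call at least once, 5 gained one and 0 reversed. Among genes described in the report, the test against the minimum fold ended the calls of Ctnnb1, Eltd1, Epas1, Gpr124, Gpr4, Itga6, Jag1, Kdr, Nkd1, Nrp1, Tap1, Vcam1 and Dll4, the fit with liver those of Emp2, Plat, Tbx3, Dll4 and Nkd1, no filter on low counts those of Slc19a3, Scgb1a1, Cbr2, Ppbp, Npr3, Ttr, Myh6 and Myh7, the block those of Npr3 and Ppbp, and limma-voom that of Ttr. Pdpn lost its call with no filter on low counts, with the fit with liver and with the block. The causes were not tested. The median log2 fold change of all genes, 0.02 in the report, was −0.11 without a filter on low counts and lay within 0.1 of the reported value otherwise. Depth limits what can be said of genes absent from lung, above all in lung library 2.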

Other observations

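Outside the gene lists, several abundant genes differed between the tissues by folds as large as those of the listed ones; they were chosen after their values were seen. Higher in brain were Itih5, which stabilises hyaluronan, at 2177, 1497 and 2033 CPM in brain and 1.28, 0 and 2.81 CPM in lung, Prom1, the membrane protein prominin, at 531, 734 and 810.1 CPM in brain and 1.54, 0 and 0 CPM in lung, and Atp10a, a phospholipid flippase, at 563, 479 and 595 CPM in brain and 11.4, 0 and 1.68 CPM in lung. Their edgeR adjusted p-values were 7.87e-07, 5.57e-06 and 0.000682, and every brain library lay above every lung library. Lower in brain were Shroom3, an actin regulator of cell shape, at 0.186, 0.558 and 0 CPM in brain and 439, 837 and 442 CPM in lung, Slc43a3, a purine carrier, at 14.8, 11.4 and 44.7 CPM in brain and 997, 942 and 846 CPM in lung, and Pde4b, which degrades cyclic AMP, at 41.5, 41.1 and 58.9 CPM in brain and 687, 866 and 608 CPM in lung. The edgeR adjusted p-values were 2.66e-06, 2.52e-05 and 2.76e-06, and again the tissues did not overlap.

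Heart muscle genes were counted in every library of both tissues, which was noticed after the data were seen. Myh6, the alpha myosin heavy chain of heart, had counts of 2953, 3005 and 1737 in brain and 3395, 5423 and 4819 in lung, or 183, 168 and 84.6 CPM in brain and 290.2, 1863 and 677 CPM in lung. Myh7, its paralog, had counts of 4363, 4857 and 2916 in brain and 4985, 8040 and 7536 in lung. The ratio of Myh6 to Myh7 counts lay between 0.596 and 0.681 in all 6 libraries, although the level in CPM differed by library and was highest in lung library 2. Both were lower in brain (edgeR adjusted p = 0.00681 and 0.00761); without lung library 3 the adjusted p of Myh7 was 0.0501. The 2 genes are near-identical in places, and counting could split their reads. Other heart muscle genes were uneven. Tnni3, Actc1 and Ckm, not among the named genes, were also lower in brain (edgeR adjusted p = 0.0168, 0.019 and 0.0446). All 3 were highest in lung library 2, at 151, 342 and 79.7 CPM. The giant sarcomere gene Ttn had 491, 584 and 340.1 CPM in brain and 334, 1345 and 647 CPM in lung. It was not called (edgeR adjusted p = 0.289). The light chain genes Myl2 and Myl7 had 0 counts in all 6 libraries.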
